A study of Mus musculus with 12 samples.

Results

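Of 19372 H3K4me3 peaks that CUT&RUN listed in DMSO-treated Min6 cells, 2479 lay inside a gene but far from annotated promoters. A peak was taken as a far intragenic peak, here also called a member, when it was under 5000 bp wide, was overlapped by at least 1 bp by an H3K4me3 peak of JNK-inhibited cells, and had its midpoint inside a gene body and more than 3 kb from all 77161 transcription start sites of the GENCODE vM21 basic annotation (GRCm38). The width limit left 18807 peaks, the overlap left 17528, the distance left 4565, and the gene body left 2479. The members were thus chosen on H3K4me3 calls in both treatments, so their presence in both lists, their width and their distance from starts follow from the choice and were not tested.

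CUT&RUN, in which a nuclease tethered to an antibody cuts out the bound DNA, was applied to Min6 cells, which derive from a mouse insulinoma and serve as a β cell model. Both arms were the same line, and cells were kept for 48 h with the JNK inhibitor SP600125 (JNKi, 20 µM) or with DMSO, the solvent. With an IgG, cJun or H3K4me3 antibody this made 6 groups of 2 biological replicates, 12 samples in all, with 550000 cells in each reaction. The lists used here merge both replicates of a group and hold only peaks called in both, the methods state 1 nominal sequencing depth for every sample while the usable reads of each library are not known here, and the IgG libraries were not analysed here. A start site within 1 kb of an H3K4me3 peak was present for 15 of 16 β cell markers in each treatment, with Ins1 the missing one in DMSO, and for 0 of 7 acinar, 0 of 2 delta, 0 of 3 immune and 0 of 2 endothelial markers. Alpha cell markers were marked for 3 of 4 genes in DMSO and 2 in JNKi, duct markers for 2 of 5 in both, and fibroblast markers for 1 of 4 in DMSO and 0 in JNKi.

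H3K4me3 is the trimethyl form of lysine 4 of histone H3. SET1 and MLL complexes write it around active and poised transcription starts, most strongly over CpG islands, and enhancers as a rule carry far less of it than of the monomethyl form. A peak inside a gene and away from its annotated start can therefore mark an alternative start, a start of an embedded or antisense transcript, or an enhancer. cJun is the JNK target that pairs with Fos and ATF proteins on AP-1 sites, which in many cell types lie mostly in enhancers.

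The description as far from promoters held only against the basic annotation. Of the 2479 members, 417 (16.8%, 95% Wilson interval 15.4 to 18.3) had their midpoint within 1 kb of a start in the comprehensive GENCODE vM21 set and 291 (11.7%) within 1 kb of a RefSeq start. For curated RefSeq transcripts alone the number was 92 (3.71%). In all, 552 members (22.3%, 20.7 to 23.9) were within 1 kb of a start of either set, and 1927 were not. Intervals over peaks here and below cover counting error only.

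**Figure D1:**
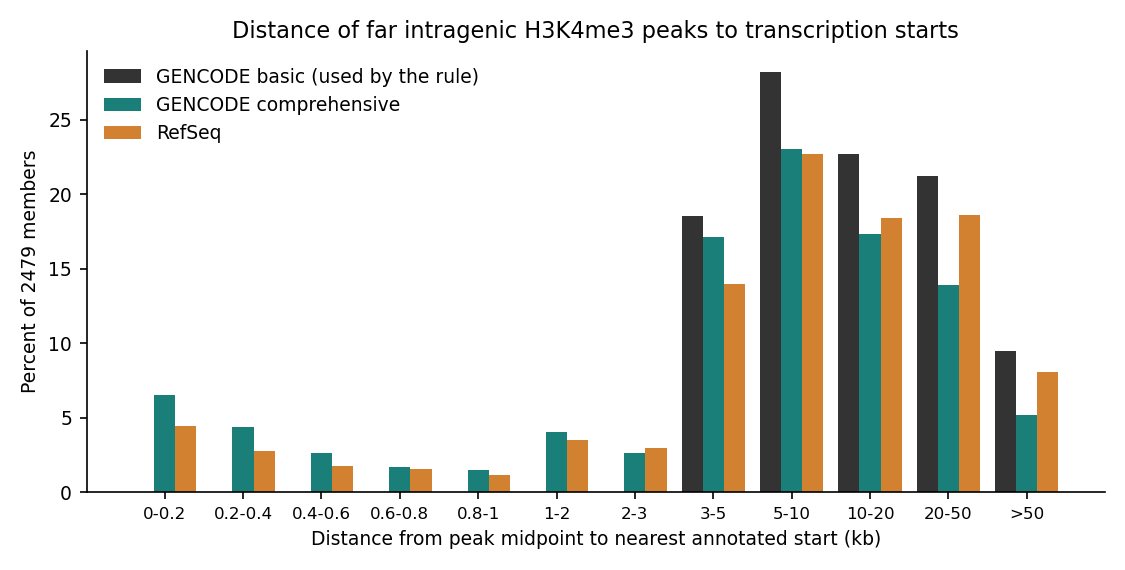
Percent of the 2479 members (y axis) by distance in kb from the peak midpoint to the nearest start (x axis) in the GENCODE basic set, the comprehensive GENCODE set and RefSeq. The rule leaves no member within 3 kb of a basic start, while 6.53% lie within 0.2 kb of a comprehensive start and 4.44% within 0.2 kb of a RefSeq start.

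Reference sequences at the summits of 7 members are given to show the range of sequence under the mark (GRCm38, plus strand, 100 bases on each side of the DMSO summit, all in introns and outside annotated exons). In the first 4, CpG dinucleotides are in capitals. Baz2a (chr10:128097368-128097568), Kdm6b (chr11:69410425-69410625) and Gm26848 (chr17:6476033-6476233) are the 3 highest members and hold 15, 8 and 3 CpG in this window. The Kdm6b window also holds AP-1 letters, left in lower case, with no cJun peak. The Atrnl1 window (chr19:57870924-57871124) is the farthest of the 7 from a basic start, 180106 bp, and holds 3 CpG. In the last 3, AP-1 letters (TGACTCA, read on both strands) are in capitals, at members overlapped at the summit by a cJun peak in both treatments: Gm32585 (chr5:125267617-125267817), Prkca (chr11:108307205-108307405) and Mrpl48 (chr7:100600275-100600475). The AP-1 letters begin 93 bases after, 42 bases before and 64 bases after the H3K4me3 summit. Only 5 of the 69 members with a cJun peak in both treatments held AP-1 letters in this window.
Baz2a: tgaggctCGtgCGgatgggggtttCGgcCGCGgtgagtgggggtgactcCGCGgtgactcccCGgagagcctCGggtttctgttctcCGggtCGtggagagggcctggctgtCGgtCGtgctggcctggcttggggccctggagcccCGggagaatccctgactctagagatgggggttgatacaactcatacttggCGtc
Kdm6b: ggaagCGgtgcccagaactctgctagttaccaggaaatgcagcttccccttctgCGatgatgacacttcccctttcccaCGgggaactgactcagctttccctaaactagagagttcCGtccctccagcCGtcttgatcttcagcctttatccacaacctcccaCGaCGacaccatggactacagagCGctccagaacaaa
Gm26848: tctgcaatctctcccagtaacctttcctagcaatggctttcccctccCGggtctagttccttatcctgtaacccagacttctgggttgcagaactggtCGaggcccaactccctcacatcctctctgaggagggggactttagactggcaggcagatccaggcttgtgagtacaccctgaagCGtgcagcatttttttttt
Atrnl1: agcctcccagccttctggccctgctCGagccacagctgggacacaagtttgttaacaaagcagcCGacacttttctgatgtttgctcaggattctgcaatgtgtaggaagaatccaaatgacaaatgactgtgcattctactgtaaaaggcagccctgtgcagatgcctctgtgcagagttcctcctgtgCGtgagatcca
Gm32585: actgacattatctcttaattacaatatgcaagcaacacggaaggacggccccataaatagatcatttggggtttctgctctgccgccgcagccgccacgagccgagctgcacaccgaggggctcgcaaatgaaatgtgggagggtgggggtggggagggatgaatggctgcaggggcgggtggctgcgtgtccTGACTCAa
Prkca: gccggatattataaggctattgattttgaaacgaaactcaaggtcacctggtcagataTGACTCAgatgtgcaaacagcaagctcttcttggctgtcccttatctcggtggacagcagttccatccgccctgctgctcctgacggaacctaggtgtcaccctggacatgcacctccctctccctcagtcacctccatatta
Mrpl48: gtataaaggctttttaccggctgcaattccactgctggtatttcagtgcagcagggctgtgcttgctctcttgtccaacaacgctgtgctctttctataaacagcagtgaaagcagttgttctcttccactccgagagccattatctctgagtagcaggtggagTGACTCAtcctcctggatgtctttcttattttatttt

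Most members were narrow and weak beside promoter peaks. Their median width was 919 bp, with a highest of 4932 bp, against 2294 bp for the 12963 narrow peaks within 3 kb of a start that passed the same width and overlap rule. The deposited −log10 p of a merged peak is the lower of its replicates' values, and its median over members was 15.5, with quartiles of 8.21 and 39.6 and a highest value of 574. The median of narrow promoter peaks was 177. For the 2086 peaks that passed the same rule but lay outside genes (intergenic far peaks), the median width was 877 bp and the median −log10 p 18.9, both close to those of the members.

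By replicate, the median −log10 p of members was 19.8 and 19 in the DMSO replicates and 26.2 and 17 in the JNKi replicates, so that the JNKi replicates differed more from each other than either DMSO replicate did from the other. The first JNKi replicate was the higher of the pair at 82.2% of members, against 56.9% for the first DMSO replicate. Replicates differed by over 3-fold at 87 members in DMSO and 165 in JNKi. Across members, Spearman's rho between replicates was 0.845 in DMSO and 0.837 in JNKi, a description over peaks that share libraries. An IDR (irreproducible discovery rate, an estimate of how likely a peak is not to repeat between replicates) of at most 0.05 was reached by 1247 members (50.3%) in DMSO and 1096 (44.2%) in both treatments, against 86.9% and 82.3% of narrow promoter peaks. The lists are not cut on IDR. A high IDR was not limited to weak peaks: Baz2a, the strongest member, had 0.0217 in DMSO and 0.282 in JNKi. The top-ranked peak of each H3K4me3 list carried the highest IDR of its list, 0.306 in DMSO and 0.282 in JNKi, so a limit on IDR also removes some of the strongest peaks.

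With each member given to 1 host gene, the members lay in 1899 genes, of which 1664 were protein-coding, and 2213 members (89.3%) had a protein-coding host. Long intergenic noncoding RNA genes held 151 members (6.09%). By the midpoint, 31.3% of members were in the first intron, 15.4% in the second and 35.3% in a later intron of the host's transcript with the most exons. In all, 312 (12.6%, 11.3 to 13.9) fell in an exon of any gene, and 167 (6.74%) lay inside the gene record but outside every basic transcript of the host. Across the length of the host from its 5′ end, 5 equal segments of the gene body held, in order, 588, 543, 435, 444 and 469 members, so the members were spread along genes with a mild excess near the 5′ end. The nearest basic start was a median of 11149 bp away, with 458 members between 3 and 5 kb, 235 beyond 50 kb and the farthest at 273914 bp. A basic start of the host lay under an H3K4me3 peak in DMSO for 1898 members (76.6%, 74.9 to 78.2).

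The 8 strongest members lay in Baz2a, Kdm6b, Gm26848, Chd8, Bad, Rbm47, Casz1 and Srrm3, and 6 of the 8 were within 1 kb of a start that the basic annotation leaves out. Baz2a, which encodes a subunit of the nucleolar remodelling complex, held the highest, with −log10 p of 677 and 574 in the DMSO replicates and 645 and 682 in the JNKi replicates. It lay 4887 bp from a basic start but 699 bp from a RefSeq start. In the first intron of Kdm6b, a histone lysine demethylase gene, the DMSO replicates reached 602 and 548 and the JNKi replicates 723 and 676, with a RefSeq start 607 bp away. All 4 values at both peaks were far above the median of members. At Kdm6b both JNKi values were above both DMSO values, while at Baz2a the ranges overlapped.

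The noncoding RNA gene Gm26848 held the next, at 521 and 472 in DMSO and 599 and 608 in JNKi, and its nearest start in any of the 3 sets was 9378 bp away. Chd8, a chromatin remodeller gene, had 444 and 463 in DMSO and 476 and 397 in JNKi, 364 bp from a RefSeq start. Bad, a pro-apoptotic BCL2 family gene, had 528 and 428 in DMSO against 416 and 450 in JNKi. In both, the treatments overlapped, and a comprehensive start lay 856 bp from the Bad peak. Rbm47, which encodes an RNA-binding protein, had 421 and 408 in DMSO and 497 and 483 in JNKi, with both JNKi values higher. Casz1, a zinc finger factor gene, had 403 and 389 in DMSO and 510 and 386 in JNKi. Srrm3, a regulator of microexon splicing, had 383 and 460 in DMSO against 539 and 424 in JNKi, and its RefSeq start was 707 bp away. The treatments overlapped at Casz1 and Srrm3. Since −log10 p also depends on depth, each replicate's values were ranked as percentiles within its own list. The ranking ran over the peaks that overlapped a peak of the other treatment (shared peaks, 18093 in DMSO). By percentile, both JNKi replicates lay above both DMSO replicates at Kdm6b, both lay below at Chd8 and Bad, and the treatments overlapped at the other 5. Statements below on which treatment was higher in H3K4me3 use this percentile.

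**Figure D2:**
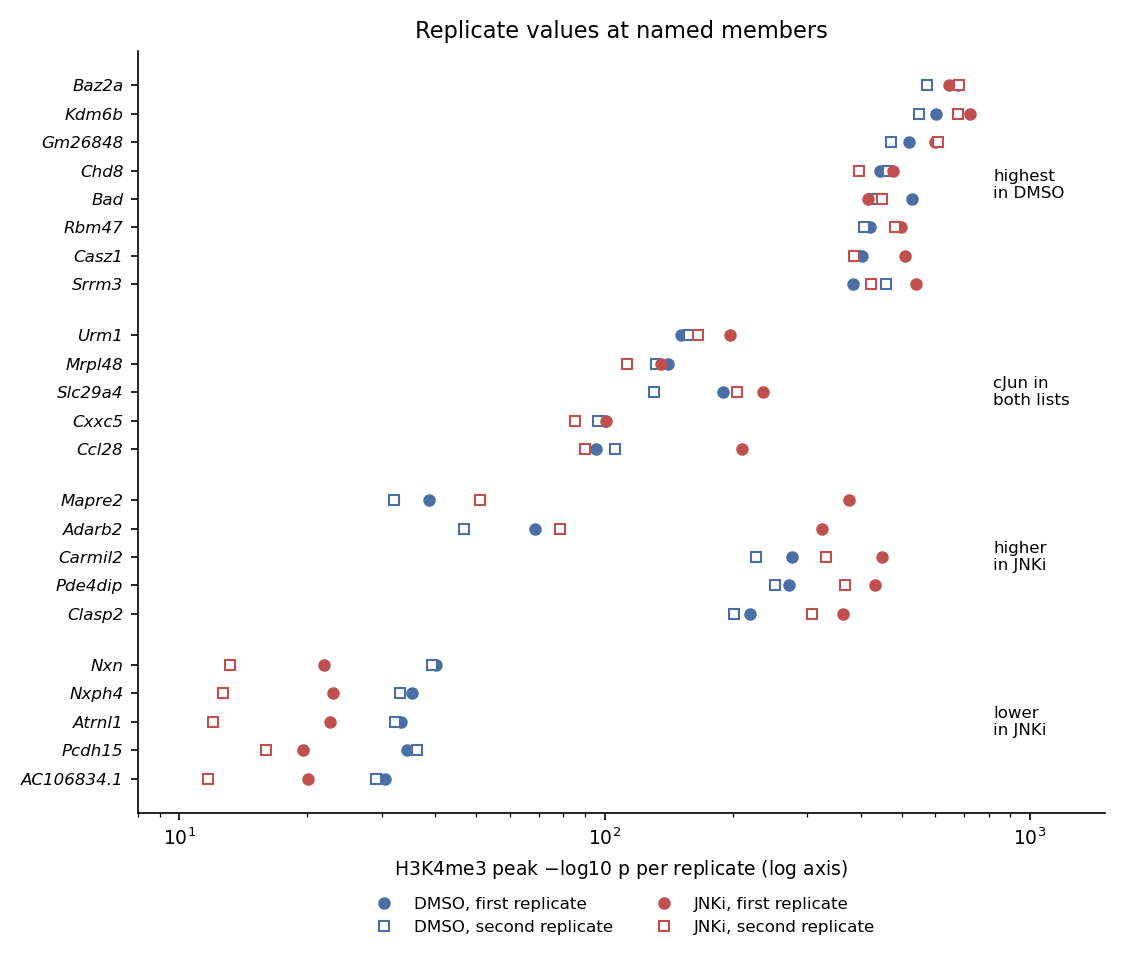
H3K4me3 −log10 p (x axis, log scale) of each replicate at the 8 highest members, 5 with a cJun peak in both lists, and the 5 members each whose percentile was most above or most below DMSO in JNKi among those with an IDR of at most 0.05 in both lists. DMSO is blue and JNKi red, with the first replicate as a filled circle and the second as an open square. At Mapre2 and Adarb2 the first JNKi replicate stands far from the other 3 values, at 375 and 324.

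Sequence and annotation differed with peak strength inside the member set. Members were ordered by DMSO −log10 p and cut into 5 groups of 495 or 496, with medians from 92.4 in the strongest group to 5.60 in the weakest. An IDR of at most 0.05 in DMSO was reached by 100% of the 2 strongest groups, 51.6% of the middle group and 0 members of the 2 weakest. A start outside the basic set lay within 1 kb for 45.7% of the strongest group (41.3 to 50.1) and for 12.5% of the weakest (9.87 to 15.7). A CpG-dense summit, defined over 250 bases on each side of the summit as at least 50% GC and an observed over expected CpG ratio of at least 0.6, was held by 32.9% (28.9 to 37.2) and 2.42% (1.39 to 4.18). The share with a cJun peak in DMSO was 11.5% (8.99 to 14.6) in the strongest group and 13.9% (11.1 to 17.2) in the weakest, with overlapping intervals throughout. AP-1 letters went the other way from CpG density, at 1.62% (0.821 to 3.16) and 6.45% (4.61 to 8.97).

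**Figure D3:**
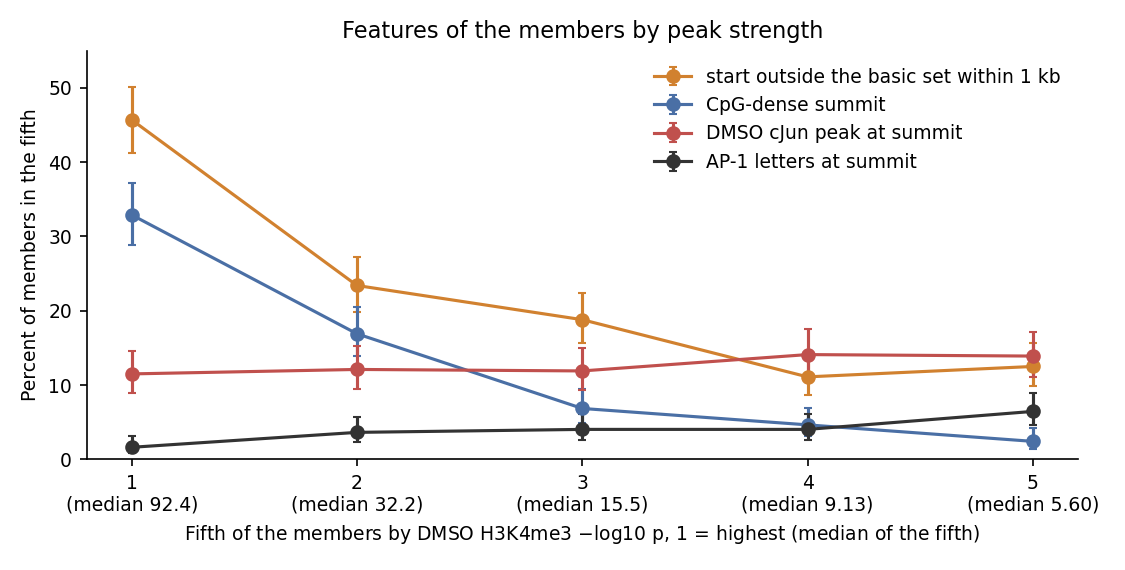
Percent of members (y axis) with each feature, for 5 groups of members ordered by DMSO H3K4me3 −log10 p (x axis, 1 is strongest), with 95% Wilson intervals as bars. Near starts outside the basic set and CpG-dense summits thin out from 45.7% and 32.9% to 12.5% and 2.42%, while the share with a DMSO cJun peak stays between 11.5% and 14.1%.

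The split by annotation gave the same contrast. The 552 members near another start had a median −log10 p of 35.7, a median width of 1258 bp and a CpG-dense summit in 27% (23.5 to 30.8). The other 1927 had a median of 13.4, a width of 852 bp and a CpG-dense summit in 8.67%. Of the 167 members outside every basic transcript of their host, 51.5% were near another start and 31.7% were CpG-dense. First-intron members were near another start in 13.6% and CpG-dense in 7.08%, and exonic members in 26.9% and 34.6%.

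Set against the other classes of peaks in the list, members differed from promoter peaks in CpG content by more than counting error and from intergenic far peaks only slightly. CpG-dense summits were held by 316 of 2479 members (12.7%, 11.5 to 14.1), 320 of 2086 intergenic far peaks (15.3%, 13.9 to 17.0) and 8470 of 12963 narrow promoter peaks (65.3%, 64.5 to 66.2). By Fisher's exact test (two-sided, Benjamini-Hochberg over 10 tests across peaks) the odds ratio against promoter peaks was 0.0775 (0.0685 to 0.0877), with a p below the smallest value the software can represent. Against intergenic far peaks it was 0.806 (0.682 to 0.953, adjusted p = 0.0213, same exact test), but the ratio was 1.47 with a promoter distance of 1 kb and 1.12 with a stricter CpG threshold, so its direction depends on where the limits are set. Peaks are not replicates, they share libraries, and neighbouring peaks are not independent, so these tests describe the lists.

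cJun peaks, which the rule did not use, were more frequent at the summits of members than at those of narrow promoter peaks. In DMSO, a cJun peak overlapped the 100 bases on each side of the H3K4me3 summit at 315 members (12.7%, 11.5 to 14.1), at 277 intergenic far peaks (13.3%, 11.9 to 14.8) and at 837 narrow promoter peaks (6.46%, 6.05 to 6.89). The odds ratio was 2.11 against promoter peaks (1.84 to 2.42, adjusted p = 1.98e-23, same Fisher's exact test) and 0.951 against intergenic far peaks (0.8 to 1.13, adjusted p = 0.629). Over the whole peak, which is wider at promoters, a DMSO cJun peak was at 14.4% of members and 11% of promoter peaks, an odds ratio of 1.36. Against intergenic far peaks the ratio was 0.542 (adjusted p = 0.0350, same exact test) with only cJun peaks of IDR at most 0.05, and 1.03 to 1.18 under 3 other settings, so neither its direction nor its side of the threshold was stable. The share was higher than at promoter peaks in all 4 ranges of H3K4me3 −log10 p: for peaks with −log10 p between 3 and 10 it was 13.0% of members and 5.73% of promoter peaks, and for those of at least 100 it was 12.1% and 6.45%. Within members, 13.5% of the 1927 away from other starts had a DMSO cJun peak and 9.78% of the 552 near them. It was 16.2% in first introns and 5.77% in exons.

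In JNKi, a cJun peak was present at 96 members (3.87%, 3.18 to 4.71), at 5.42% of intergenic far peaks and at 2.04% of narrow promoter peaks. The odds ratio was 1.93 against promoter peaks (1.52 to 2.45, adjusted p = 7.21e-07, Fisher's exact test) and 0.703 against intergenic far peaks (0.532 to 0.929, adjusted p = 0.0221). Both calls were lost when members were limited to an IDR of at most 0.05 (adjusted p = 0.108 and 0.466, same exact test). Fewer members carried cJun in JNKi than in DMSO, but the whole cJun list was also shorter, with 1632 peaks against 4960, and with 1 list per treatment and the usable reads of each library not known the treatment could not be tested.

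**Figure D4:**
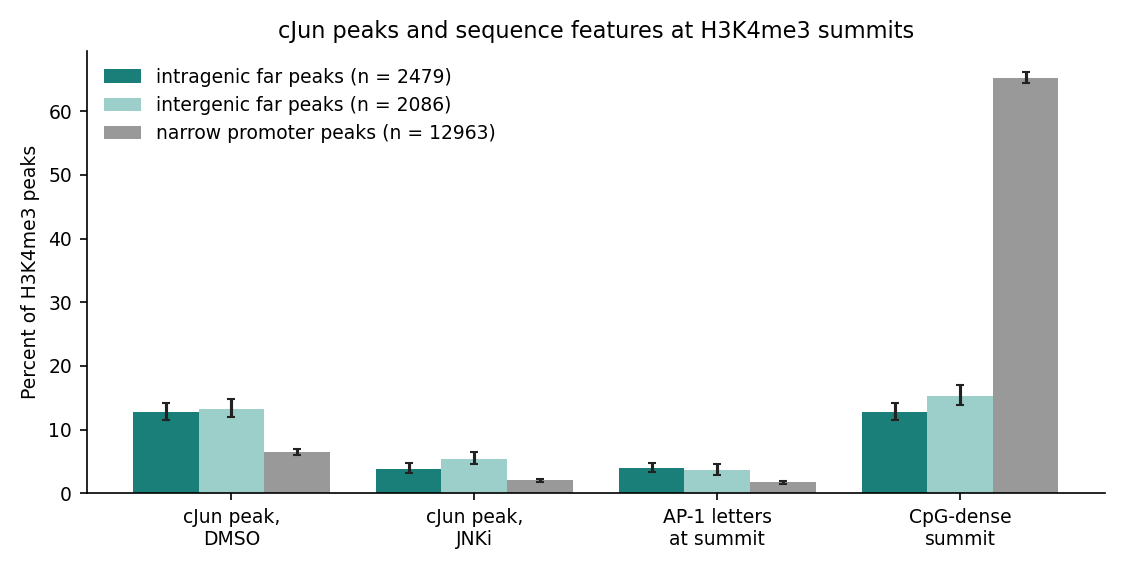
Percent of H3K4me3 peaks (y axis) with a cJun peak at the summit in DMSO or JNKi, AP-1 letters at the summit or a CpG-dense summit, for 2479 intragenic far, 2086 intergenic far and 12963 narrow promoter peaks, with 95% Wilson intervals as bars. The first 3 measures are higher at members than at promoter peaks (12.7% against 6.46%, 3.87% against 2.04% and 3.95% against 1.70%) and the last is lower (12.7% against 65.3%).

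Of the 315 DMSO cJun peaks at member summits, 72 (22.9%, 18.6 to 27.8) were overlapped by a cJun peak in JNKi. The share was 33.1% (91 of 275) at intergenic far peaks, 25% (209 of 835) at promoter peaks and 23.6% (1169 of 4960) over all DMSO cJun peaks. The odds ratio was 0.599 against intergenic far peaks (0.416 to 0.862, adjusted p = 0.0115, Fisher's exact test) and 0.887 against promoter peaks (0.653 to 1.21, adjusted p = 0.611). With only cJun peaks of IDR at most 0.05 the first of these was 0.716 (adjusted p = 0.642, same exact test). cJun peaks at members that were overlapped in JNKi had a median −log10 p of 7.73, and 17 of 72 had an IDR of at most 0.05. Those that were not overlapped had a median of 5.79, and 9 of 243 reached that IDR; most peaks of both kinds thus had a high IDR.

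A cJun peak in both treatments was present at the summit of 69 members. Of those with the strongest H3K4me3, 5 are described here. At Urm1, a ubiquitin-like modifier gene, H3K4me3 was 151 and 158 in DMSO and 197 and 166 in JNKi, and cJun was 23.6 and 12.4 in DMSO and 11.1 and 9.07 in JNKi. Both JNKi cJun values lay below both DMSO values there. cJun −log10 p was not ranked as percentiles, so here and below its order between treatments can also depend on depth.

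At Mrpl48, which encodes a mitochondrial ribosomal protein, a peak other than the one whose sequence is shown had H3K4me3 of 141 and 132 in DMSO and 136 and 113 in JNKi and cJun of 18.7 and 10.6 in DMSO and 8.15 and 12.6 in JNKi. Slc29a4, a transporter gene, had H3K4me3 of 190 and 131 against 236 and 205, and cJun of 18.2 and 21.4 against 16.7 and 20.8. cJun overlapped between treatments at both. Cxxc5, a zinc finger gene, had H3K4me3 percentiles of 42.6 and 45.1 against 38.5 and 41.9 and cJun of 12.2 and 15.1 against 12.4 and 11.6. At Ccl28, a chemokine gene, H3K4me3 was 95.3 and 106 in DMSO and 210 and 89.9 in JNKi, and cJun was 27.5 and 28.9 against 24.1 and 10.8. The Ccl28 cJun summit lay at −6 bp from the H3K4me3 summit, both JNKi cJun values were below both DMSO values, and a RefSeq start was 107 bp away. Of these 5, all but Cxxc5 had a start outside the basic set within 1 kb.

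The strongest cJun peaks at members, chosen after their values were seen, were at Ccdc162 and Gm32585. At Ccdc162 cJun reached 86.5 and 74.7 in DMSO and 34.6 and 45.4 in JNKi over an H3K4me3 peak whose DMSO replicates had 29.3 and 27.8 and whose JNKi replicates had 43.9 and 17.7. At Gm32585, a noncoding RNA gene, cJun was 46.9 and 30.3 in DMSO and 32.5 and 11.9 in JNKi. Only the Ccdc162 cJun values were separated between treatments, again by −log10 p that was not adjusted for depth. No AP-1 letters lay within 100 bp of either cJun summit, and at Gm32585 the cJun summit was 384 bp from the H3K4me3 summit. At Prkca, which encodes protein kinase C alpha and whose window with AP-1 letters is printed above, cJun was 10.9 and 4.69 in DMSO and 6.68 and 9.78 in JNKi, which overlap. The printed Mrpl48 peak had cJun of 3.57 and 13.5 in DMSO. The DMSO cJun IDR was 0.519 at Prkca and 0.729, the highest of its list, at this Mrpl48 peak, against 2.39e-04 at Gm32585. The DMSO H3K4me3 IDR was 0.306 at this Prkca and this Mrpl48 peak and 0.00298 at Gm32585. Over all 315 members with a DMSO cJun peak, the median distance between the cJun and H3K4me3 summits was 98 bp.

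AP-1 letters within 100 bp of the H3K4me3 summit were present at 98 members (3.95%, 3.25 to 4.79), 76 intergenic far peaks (3.64%) and 220 narrow promoter peaks (1.70%), and at 2.41% of all 19372 DMSO peaks. The odds ratio was 2.38 against promoter peaks (1.87 to 3.04, adjusted p = 1.26e-10, Fisher's exact test) and 1.09 against intergenic far peaks (0.802 to 1.48, adjusted p = 0.642). Windows of the same length 2 kb up or down from member summits held the letters in 3.87% and 3.83%, close to the share at the summits, whereas the shares at promoter summits and their flanks were 1.70%, 3.55% and 3.46%. Searched over the whole peak, which is wider at promoters, the ratio against promoter peaks turned to 0.713. The 315 members with a DMSO cJun peak held AP-1 letters in 7.94% (5.43 to 11.5) and the 2164 without in 3.37% (2.69 to 4.22). In the windows 2 kb up the shares were 5.08% (3.15 to 8.09) and 3.70% (2.98 to 4.58).

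Other letters searched on both strands differed from the flanks by varying amounts, as a description without a test. The GC box (GGGCGG) was at 13.6% of member summits (12.3 to 15) against 3.11% and 3.63% of the shifted windows and 33.9% of promoter summits. Forkhead letters (TGTTTAC) were at 4.48% (3.73 to 5.36) against 2.42% and 2.62%, and at 1.52% of promoter summits. ETS letters (CCGGAAG) were at 2.14% (1.64 to 2.79) against 0.807% and 0.766%. MAF letters (TGCTGAC, which can share their last 4 letters with an AP-1 site) were at 4.52% (3.77 to 5.41) against 2.90% and 3.51%. At intergenic far peaks the 4 shares were 16.2%, 4.22%, 2.68% and 3.98%, in the same order, also above both of their flanks. For these 4 letters the whole interval at member summits lay above both flanks.

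For the remaining letters the interval at member summits held or lay below the share of at least 1 flank. The E-box of bHLH factors such as Neurod1 (CAGATG) was at 17.2% (15.8 to 18.7) against 14.4% and 16.5%, homeobox letters (TAATTA) at 5.16% against 5.37% and 6.25%, TEAD letters (GGAATG) at 9.48% against 9.84% and 10.4%, and the nuclear receptor half-site (AGGTCA) at 11.1% against 12.5% and 12.8%. CRE (TGACGTCA) and NRF1 (GCGCATGC) letters were rare, at 10 and 8 members. The forkhead share was 2.63% in the strongest of the 5 groups and 6.05% in the weakest, and the GC box share 25.3% and 6.05%, so the letters of the strongest and weakest members differed as their CpG content did.

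H3K4me3 at members stood at about the same place in the list in both treatments. Both JNKi percentiles lay above both DMSO percentiles at 404 members (16.3%), beside 16.0% of all 18093 shared peaks, and below at 464 (18.7%), beside 19.9%. At the other 1611 members the treatments overlapped, and the median difference was −0.114 percentile points, with a range from −8.14 to 8.83 between the 5th and 95th percentiles of members. The rule used H3K4me3 calls in both lists, and with 2 replicates against 2 the smallest two-sided exact permutation p is 0.333, so no test is given. A lower value cannot be told apart as fewer marked cells or less mark per cell. Of the 1096 members with an IDR of at most 0.05 in both lists, 189 lay above, beside 15.6% of shared peaks at that IDR, and 246 below, beside 21.1%. The split differed with peak strength: of the 5 groups by DMSO −log10 p, the strongest had 10.7% above and 24.6% below and the weakest 22.4% above and 5.44% below, with the groups cut on the DMSO values themselves. CpG-dense members, with a median −log10 p of 55.7, had 8.86% above and 25.3% below, close to the strongest group. The 246 members with cJun in DMSO only had 13.4% above and 23.6% below. The 69 with cJun in both treatments had 21.7% above (15 members) and 14.5% below (10 members). Beside them, the 2137 members with no cJun peak in either treatment had 16.1% above and 18.4% below, and these differences were not tested. Without a JNKi overlap, and so outside the members, were 522 further far intragenic peaks, and 82.6% (81.2 to 83.9) of the 3001 in all were kept. The same share was 86.5% for far intergenic peaks, 96.8% for peaks within 3 kb of a start and 93.2% for all 18807 peaks under the width limit. This overlap is part of the rule and was not tested.

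The members most above DMSO in percentile, among the 1096, began with Mapre2, which encodes a microtubule end-binding protein. Its −log10 p was 38.6 and 32.0 in DMSO and 375 and 51.1 in JNKi, and its mean percentile was 27.5 points higher. At Adarb2, an RNA-editing family gene, it was 68.5 and 46.7 against 324 and 78.6, 19.9 points higher. At both, the JNKi peak was over 5000 bp wide (5162 and 6053 bp), reached over a basic start site and so joined the member to the promoter, and only 1 JNKi replicate stood far above DMSO. JNKi peaks reached over a basic start at 20 members in all.

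The next 3 stood as separate peaks of similar width in both treatments. Carmil2, a regulator of actin capping, had 276 and 227 in DMSO and 450 and 332 in JNKi, 14.1 points higher. Pde4dip, an anchoring protein of the Golgi and centrosome, had 272 and 251 against 432 and 368, 13.6 points higher. Clasp2, another microtubule-binding protein gene, had 220 and 202 against 364 and 307, 13.1 points higher. Both JNKi replicates were above both DMSO replicates at all 3, each lay within 1 kb of a comprehensive start, and a DMSO cJun peak stood at Clasp2 alone.

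The members most below DMSO among the same 1096 had −log10 p of 29.1 to 40.2 in DMSO. Nxn, which encodes nucleoredoxin, had 40.2 and 39.3 in DMSO and 21.9 and 13.2 in JNKi, and its mean percentile differed by −13.9 points. Nxph4, a neurexophilin gene, had 35.3 and 33.1 against 23 and 12.7 (−11.7 points). Atrnl1, an attractin-like gene, had 33.2 and 32.1 against 22.6 and 12 (−11.7 points). Pcdh15, a protocadherin gene, had 34.3 and 36.2 against 19.6 and 16.0 (−11.5 points), and the noncoding RNA gene AC106834.1 had 30.4 and 29.1 against 20.1 and 11.7 (−11.5 points). Both JNKi replicates were below both DMSO replicates at all 5. These members were picked as the extremes, so their differences are a description.

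Without the IDR limit, larger differences were found, named here after their values were seen. Fnip1, a folliculin-interacting protein gene, had 8.63 and 5.57 in DMSO and 657 and 564 in JNKi, 93.9 points higher. Its JNKi peak reached over a basic start, as did those of the next 4 members above DMSO. Below DMSO, Ltbp4, a gene for a TGF-β binding protein of the matrix, had 84.4 and 82.4 against 9.81 and 8.48 (−34.2 points). The Ltbp4 peak was nevertheless wider in JNKi, at 4294 bp against 2566 bp. Ssh2, a cofilin phosphatase gene, had 216 and 173 against 231 and 6.48 (−29.0 points), where only the second JNKi replicate was far lower. The JNKi IDR was 0.282, the highest of that list, at Ltbp4 and Ssh2.

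Host genes were counted over 16882 protein-coding genes of at least 6 kb, of which 1677 (9.93%) held a member. Here a member was counted for every gene that covered its midpoint, so overlapping genes can share a member and the number is not that of the single hosts above. The share grew with gene length, from 4.08% (3.63 to 4.58) of genes of 6 to 20 kb to 25.8% (24.1 to 27.5) of those of 100 kb or more. In each length range it was higher where the gene's own start carried H3K4me3, at 29.6% (27.6 to 31.7) against 14.8% (12.2 to 17.7) for the longest. The lists below were chosen with earlier results of these data known, 9 of the 12 have a median gene length above the 26384 bp of all these genes, and no test was made.

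Of the 12 lists, ion channel genes held members most often. Voltage-gated and potassium channels had a member in 10 of 22 genes (45.5%), beside 9.93% of all genes, with a median gene length of 165482 bp. Glucose sensing and metabolism had 6 of 16 (37.5%) at a median length of 37201 bp, neuronal adhesion and synapse genes 7 of 23 (30.4%) at 852341 bp, incretin receptors and cAMP signalling 6 of 20 (30.0%) at 113396 bp, β cell transcription factors 5 of 19 (26.3%) at 64466 bp, and granule exocytosis 5 of 20 (25%) at 107564 bp. The metabolism share was 18.8% (3 of 16) both with members limited to an IDR of at most 0.05 and without members near other starts, below the 30.0% of incretin and cAMP genes and the 20.0% of exocytosis genes in both, while channels stayed highest at 31.8%. The share of all genes was 5.53% and 7.79% under these settings. Lower shares than these 6 lists were found for JNK pathway kinases and scaffolds (3 of 19, 15.8%), insulin processing and granule proteins (2 of 14, 14.3%) and the unfolded protein response (2 of 15, 13.3%). Below the share of all genes were AP-1, CREB and ATF factors (1 of 14), markers of other pancreatic lineages and mesenchyme (1 of 16) and writers, erasers and readers of H3K4 (1 of 21).

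**Figure D5:**
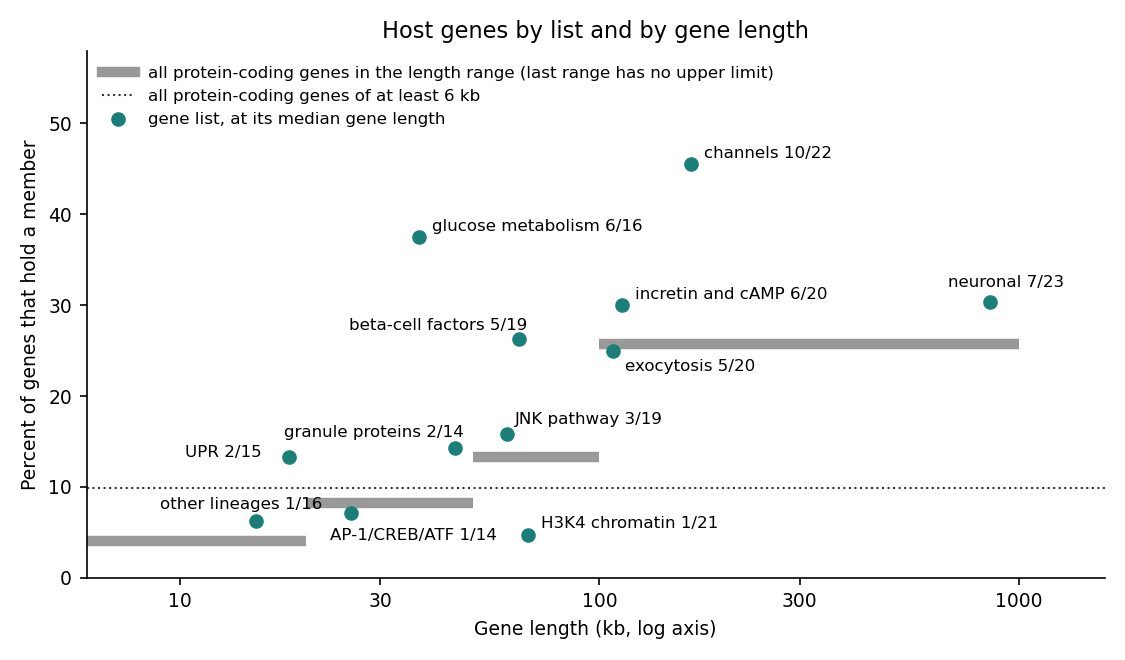
Percent of genes that hold a member (y axis) against gene length in kb (x axis, log scale), for 12 gene lists placed at their median length (points, with the number of genes holding a member and the number of at least 6 kb) and for all protein-coding genes in 4 length ranges (grey bars) and together (dotted line, 9.93%). Channels (45.5%) and glucose metabolism (37.5%) lie above the bar of their length range (25.8% and 8.27%), and exocytosis (25%) and neuronal genes (30.4%) lie near theirs (25.8%).

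Among the channels, Scn8a, a sodium channel, held a peak of 118 and 104 in DMSO and 162 and 86.8 in JNKi, 47194 bp from a basic start. At Cacna1a, the P/Q-type calcium channel, an exonic peak had 202 and 72.6 in DMSO and 176 and 161 in JNKi, 183 bp from a RefSeq start. Kcnma1, the BK potassium channel, had 87.8 and 66.5 against 69.5 and 69.0. At Cacna1c, the L-type calcium channel of β cells, a peak 89505 bp from a basic start had 40.7 and 45.3 in DMSO and 95.4 and 54.5 in JNKi, and cJun lay at its summit in DMSO but not in JNKi. JNKi was above DMSO in both replicates at Cacna1c and overlapped DMSO at Scn8a and Cacna1a.

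In metabolism, the strongest was at Acaca, the acetyl-CoA carboxylase of fatty acid synthesis, with 262 and 186 in DMSO and 302 and 232 in JNKi, 59 bp from a RefSeq start. Cs, citrate synthase, had 30.0 and 32.9 against 47.1 and 25.2, and Pkm, pyruvate kinase, had 16.6 and 10.6 against 35.0 and 14.9. JNKi was above DMSO at Pkm and overlapped it at Acaca and Cs. The Pkm peak was 2687 bp wide in JNKi against 947 bp in DMSO, where its IDR was 0.306, the highest of the list.

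In cAMP signalling, Rapgef4, the cAMP sensor of β cells, had 184 and 170 against 206 and 184, and the phosphodiesterase gene Pde4d had 196 and 166 against 270 and 191. Gipr, the receptor of the incretin GIP, had 53.4 and 72.5 against 80.0 and 57.2, and Pde4b 33.5 and 34.9 against 53.7 and 36.2. JNKi was above DMSO at Pde4d and Pde4b and overlapped it at Rapgef4 and Gipr. DMSO cJun lay at the summit of both phosphodiesterase peaks and JNKi cJun at neither.

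Among β cell transcription factors, Hnf4a, which causes inherited diabetes when mutated, had 247 and 167 in DMSO and 240 and 258 in JNKi, and its peak lay 442 bp from a RefSeq start. Bach2 had 64.0 and 47.0 against 49.3 and 49.4, and Glis3, a zinc finger factor of β cell development, had 30.2 and 26.7 against 16.3 and 17.2 at 132966 bp from a basic start. JNKi was below DMSO in both replicates at Glis3 and overlapped it at Hnf4a and Bach2. At Glis3, 2 JNKi peaks overlapped the 1089 bp DMSO peak. The JNKi values are those of the one with the larger overlap, which was 414 bp wide with an IDR of 0.100.

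Of the exocytosis genes, Rims2, an active zone scaffold, had 69.9 and 81.9 against 123 and 78.9, Rph3a, a Rab effector, 26.7 and 35.4 against 22.7 and 20.2, Rimbp2 38.0 and 22.2 against 56.1 and 41.0 and Rab27a, the granule GTPase, 25.5 and 17.0 against 34.0 and 12.3. JNKi was above DMSO at Rimbp2, below it at Rph3a and overlapped it at the others. cJun lay at Rph3a in both treatments and at Rimbp2 in DMSO alone. Granule proteins held Pam, the peptide-amidating enzyme, at 16.6 and 14.6 against 25.3 and 10.3, and Chga, chromogranin A, at 6.13 and 4.79 against 5.53 and 6.70. The neuronal genes Dlgap1 (62.4 and 68.4 against 75 and 67.2), Nrxn2 (45.3 and 45.1 against 75.6 and 45.5), Robo1 (56.6 and 30.2 against 97.5 and 60.0) and Cadm1 (29.2 and 25.5 against 59.1 and 25.8) were at intermediate strength. JNKi was above DMSO at Nrxn2, Robo1 and Cadm1 and overlapped it at Dlgap1, and none of the 4 had a cJun peak at the summit.

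The JNK pathway genes with a member were kinases upstream of JNK, and all 3 peaks were weak: Map3k1 had 6.65 and 14.2 in DMSO and 14.8 and 11.4 in JNKi, Map3k13 had 11 and 6.29 against 18.7 and 8.75, and Map3k4 had 4.02 and 21.0 against 21.9 and 7.06. Treatments overlapped at all 3, and cJun lay at the Map3k4 summit in both. None of the 3 reached an IDR of at most 0.05. Eif2ak3, the ER stress kinase PERK, had 21.2 and 14.8 against 13.7 and 12.6 with cJun in both treatments, and Ern1, its partner sensor, 5.03 and 3.61 against 11.1 and 5.01. In the remaining lists, Maff, a small Maf factor, had 108 and 107 against 117 and 77.8, Setd1b, an H3K4 methyltransferase, had 68.1 and 50.7 against 52.0 and 48.7 with cJun of 31.3 and 29.1 in DMSO and 23.7 and 14.9 in JNKi, and Pecam1, an endothelial adhesion gene, had 11.1 and 9.85 against 6.93 and 11. JNKi was above DMSO at Ern1, below it at Maff and Setd1b, and overlapped it at Eif2ak3 and Pecam1. The Ern1 peak was among the weakest, with DMSO percentiles of 1.43 and 0.285. It had the highest IDR of each list, 0.306 in DMSO and 0.282 in JNKi.

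Members gathered in some genes. Of 1899 hosts, 1523 (80.2%) held 1 member, 273 held 2 and 103 held 3 or more. The gene records Gm20388 (28 members) and Gm37240 (7) span 4434882 and 1391093 bp and cover other genes, so their members cannot be given to 1 gene. Maml3, a Notch coactivator gene, held 10 members over 419170 bp with −log10 p from 5.87 to 91.4, 4 of them with DMSO cJun, and Camta1, a calcium-responsive factor gene, held 8 over 944555 bp, from 6.64 to 31.1. Bcor, a corepressor gene on the X chromosome, held 7 over 123616 bp, from 11.7 to 164, with 6 CpG-dense and 0 with DMSO cJun. Bcor had the densest set of these 5 genes, at 5.66 members per 100 kb beside 2.39 in Maml3.

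Values just inside and just outside the limits of the rule overlapped. The 3 members closest to a basic start were at Il33 and Dlg3 (both 3003 bp) and Gm43091 (3007 bp), with merged −log10 p given by their lower replicate of 23.7, 151 and 20.8. Just inside 3 kb, and so left out, were peaks at C130012C08Rik (3000 bp, lower replicate 61.4), A830009L08Rik (2994 bp, 33.6) and Auts2 (2992 bp, 8.51). The widest members were at Bicral (4932 bp), Kcnip1 (4717 bp) and Chd9 (4642 bp), with lower replicates of 349, 370 and 258 in DMSO. Peaks of 5000 bp or more, of which 29 were far intragenic and shared, began at Pura, Dst and Rap1gap2, with lower replicates of 397, 163 and 348.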

How the data were processed

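H3K4me3 and cJun were profiled by CUT&RUN in Min6 cells treated with DMSO or JNKi, with samples grouped by their labels. The authors trimmed reads with Trimmomatic, aligned them to GRCm38 with Bowtie2 2.4.2, filtered with SAMtools 1.16, called peaks per replicate with MACS2 2.2.7.1 against IgG and paired replicates with IDR (versions from the submitters' processing notes). The deposited −log10 p of a merged peak equals the lower replicate value, and the lowest lies just above 3. The deposited IDR was given as −log10 and converted back. Other deposited columns (coordinates and summits) were used as given. The methods state a nominal depth common to all samples, and usable reads per library are not known here.

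Midpoints were compared with GENCODE vM21 starts. cJun overlap, AP-1 letters and CpG density at summits (Python 3.11.15 with scipy 1.17.1, pandas 2.3.3 and numpy 2.4.6, plots by matplotlib 3.10.9) were compared by two-sided Fisher's exact tests with Benjamini-Hochberg adjustment over 10 tests, tested on simulated data. Named members were the 8 highest by DMSO −log10 p, the 6 highest with cJun in both treatments, those with AP-1 letters too, the 5 most above and below DMSO in percentile among separated members with an IDR of at most 0.05 in both lists, and up to 4 per gene list. Members and lists were chosen with earlier results of these data known. Alternatives were other IDR, distance, overlap, summit and CpG limits. The IgG libraries were not used here, and some genes that the rule names are not reported here.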

Additional observations from a re-analysis of the deposited data

How the results depend on the processing

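No paired analysis was possible because the merged lists, 1 per treatment, carry no replicate numbers, and no replicate could be left out because the lists hold only peaks called in both. Of 106 alternatives to the tests, 80 kept direction and side of the threshold, and causes of the rest were not tested. cJun in DMSO against promoter peaks kept both in 11 of 11 (odds ratio from 1.36 over the whole peak to 2.30). Members numbered 1247 and 1113 at an IDR of at most 0.05 and 0.01, and 1323 with a 10 kb distance. By the same exact tests, for cJun in JNKi against intergenic far peaks the call was lost at both IDR limits (0.812, adjusted p = 0.466, and 0.830, 0.608), at 10 kb (0.760, 0.229), with 50% reciprocal overlap (0.732, 0.0560), with the highest peak in any 100 kb (0.888, 0.529), without peaks near other starts, an alternative chosen after seeing the data (0.722, 0.0538), over the whole peak (0.776, 0.102) and with cJun IDR of at most 0.05 (0.523, 0.0753). Against promoter peaks it was lost at both IDR limits (1.43, 0.108, and 1.49, 0.0692), over the whole peak (1.20, 0.134) and with the cJun IDR limit (1.51, 0.225). CpG density against intergenic far peaks lost its call at both IDR limits (0.978, 0.844, and 0.988, 0.919), with reciprocal overlap (0.835, 0.0586) and per 100 kb (0.926, 0.529), and reversed at 1 kb (1.47, 6.47e-08) and with the stricter CpG threshold (1.12, 0.568). Retention of cJun against intergenic far peaks lost its call at an IDR of at most 0.05 (0.527, 0.0546), per 100 kb (0.634, 0.107) and with the cJun IDR limit (0.716, 0.642). cJun in DMSO against intergenic far peaks, not called, reversed at 10 kb (1.09, 0.515), per 100 kb (1.18, 0.218) and without other starts (1.03, 0.739), and became a call with the cJun IDR limit (0.542, 0.0350). AP-1 letters against promoter peaks reversed over the whole peak (0.713, 5.32e-10). With IDR of at most 0.05 in both lists 22.4% of members lay below DMSO, and with percentiles over each whole list 22.0% lay below and 14.2% above. The share of protein-coding genes with a member was 13.8% of those of at least 20 kb, 5.53% with IDR-limited members and 7.79% without peaks near other starts.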
